A study of Mus musculus with 20 samples.

Results

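The tumour necrosis factor (TNF) superfamily was followed in RNA sequencing libraries from whole spleen of mice aged 4 weeks, either control or bred on a gluten-free diet. The members were the protein-coding genes of the count table whose symbol is Tnfrsf or Tnfsf followed by a number. They were 31 of 22046 protein-coding genes, among 54532 genes in all, and comprised 20 receptors (Tnfrsf) and 11 ligands (Tnfsf). The control group held 8 libraries with plain number IDs (1 to 8) and 3 whose IDs begin with S, namely S1, S2 and S6. The gluten-free group held 4 libraries with plain IDs (7 to 10) and 5 of the S form, namely S1, S3, S5, S6 and S8. The labels give no strain, sex, genotype or diet composition, and they do not say what the letter S stands for, so diet was compared within each ID form. They also do not say that each ID is a separate mouse, so p-values measure the spread between these libraries.

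Ligands of this superfamily are mostly trimeric proteins on the surface of immune cells, and some are cut off to act at a distance. Their receptors either carry a death domain, which can start programmed cell death, or recruit TRAF adaptor proteins that activate the transcription factor NF-kappa-B. In the spleen the family is known for B cell survival, for costimulation of activated T cells and for the layout of the white pulp.

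Library totals ran from 13626021 to 19719591 counts in the control libraries with plain IDs and from 16134584 to 22501138 in the gluten-free ones. In the S IDs they ran from 15235671 to 17824287 (control) and from 18008255 to 24268237 (gluten-free). Several libraries stood apart. On the second principal component of all tested genes, which held 13.8% of the variance, control 5 lay at -20.4, among the S libraries, while the other 7 plain control libraries lay between 21 and 37.5. On the first component, with 26% of the variance, the plain gluten-free libraries lay between 50.8 and 67, control 8 was nearest to them at 33.1, and gluten-free S8 was lowest at -61.9. Gluten-free S1 held 7800 CPM (counts scaled to a common library size with TMM factors) of pancreatic acinar genes, control 4 held 708 and no other library more than 24.8. Each marker of T cells, B cells, erythroid cells and red pulp macrophages, the cells that define spleen, had counts.

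The members lay on 11 chromosomes, with 9 of the 31 on chromosome 4. Several sat side by side. In GRCm38 coordinates, Tnfrsf4 (chr4:156013843-156016612) ended 9.6 kb before Tnfrsf18 (chr4:156026164-156028895), and Tnfrsf26, Tnfrsf22 and Tnfrsf23 shared 0.08 Mb of chromosome 7. Tnfsf13 and Tnfsf12 were separated by 0.5 kb on chromosome 11. Both of those genes overlap the annotated read-through gene Tnfsfm13 on the same strand, and Tnfrsf9 overlaps Camta1 on the opposite strand. The counting rules for strand and for shared reads are not given in the sources used here, so the values of these overlapping genes, and of Tnfrsf18, Tnfrsf22, Tnfrsf23, Tnfrsf26 and Tnfsf9, which have antisense or non-coding neighbours, are less certain than the rest.

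RefSeq promoter windows (GRCm38.p6, 250 bases before to 50 after a start) matched 24 of the 31 members. The 150 bases just before the start are shown for members called in the diet comparison within the plain IDs, those with the smallest adjusted p in each direction whose stretch overlapped no annotated exon. Tnfsf14 lies at chr17:57194182-57194331 (minus strand), Tnfsf13b at chr8:10006317-10006466 (plus strand) and Tnfrsf21 at chr17:43016405-43016554 (plus strand). Each is written 5′ to 3′ on the gene's strand, with capitals for a match to a GATA or an NF-kappa-B motif.
Tnfsf14: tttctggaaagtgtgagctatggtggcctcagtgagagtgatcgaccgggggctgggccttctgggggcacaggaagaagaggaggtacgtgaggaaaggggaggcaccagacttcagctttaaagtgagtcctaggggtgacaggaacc
Tnfsf13b: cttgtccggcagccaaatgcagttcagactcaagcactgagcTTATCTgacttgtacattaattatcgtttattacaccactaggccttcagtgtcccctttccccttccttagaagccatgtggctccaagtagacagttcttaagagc
Tnfrsf21: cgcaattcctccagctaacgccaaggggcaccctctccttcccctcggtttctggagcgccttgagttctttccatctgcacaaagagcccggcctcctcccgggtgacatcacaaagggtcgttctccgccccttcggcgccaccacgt
The Tnfrsf21 stretch was 62.0% G and C with 11 CG dinucleotides, against 56.7% and 3 for Tnfsf14 and 46.0% and 2 for Tnfsf13b.

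The NF-kappa-B consensus, searched on both strands, occurred in the windows of 3 of the 24 members (Tnfrsf8, Tnfrsf9 and Tnfrsf25) and of 9.55% of 27025 genes with a window. The matches outside annotated exons are shown with 10 bases on each side and the match in capitals. They come from chr4:152116305-152116334 (Tnfrsf25, plus strand) and, for a pair of matches that overlap with a shift of 1 base, from chr4:145315313-145315342 and chr4:145315312-145315341 (Tnfrsf8, minus strand).
Tnfrsf25: aaaggggtctGGGGGCCTCCacttctcaga
Tnfrsf8: tcaaaacgcaGGGGAGCCCCctgcgtgcgt
Tnfrsf8, shifted match: caaaacgcagGGGAGCCCCCtgcgtgcgtg
The GATA motif, spelled AGATAA, with T allowed as its opening base and G as its last, and searched on both strands, occurred in 5 of the 24 members (Tnfsf8, Tnfrsf1b, Tnfrsf9, Tnfrsf4 and Tnfsf13b) and in 33.0% of the genes. These matches are descriptions of the letters in the windows, not measured binding sites.

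Per gene length, receptors led the members in the spleen libraries. As the mean over the 20 libraries in RPKM (CPM per kilobase of gene length, TMM-scaled), Tnfrsf14 (HVEM, the receptor of the ligand LIGHT) stood at 88.9. Next came the B cell receptors for the survival factor BAFF, Tnfrsf13c (BAFF-R) at 34.0 and Tnfrsf13b (TACI) at 27.9. Tnfrsf1a (TNF receptor type 1) followed at 16.0, Tnfrsf21 (death receptor 6) at 12.3 and Tnfrsf1b (TNF receptor type 2) at 11.3. Among the members, the most abundant ligand was Tnfsf14 (LIGHT itself) at 8.00 RPKM, and the least abundant member was Tnfsf15 (the ligand TL1A) at 0.105. Of the superfamily ligands with other names, the lymphotoxins Ltb and Lta stood higher than Tnfsf14, at 132 and 10.4 RPKM. The level of Tnfrsf14 was 123 ± 34.8 RPKM in plain control libraries (SD, n = 8), 66.7 ± 7.93 in plain gluten-free (n = 4), 66.2 ± 18 in S control (n = 3) and 64.9 ± 24.4 in S gluten-free libraries (n = 5). Neighbours in this order, such as Tnfrsf21 and Tnfrsf1b, had overlapping ranges of mean ± SD in 3 of the 4 groups.

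**Figure D1:**
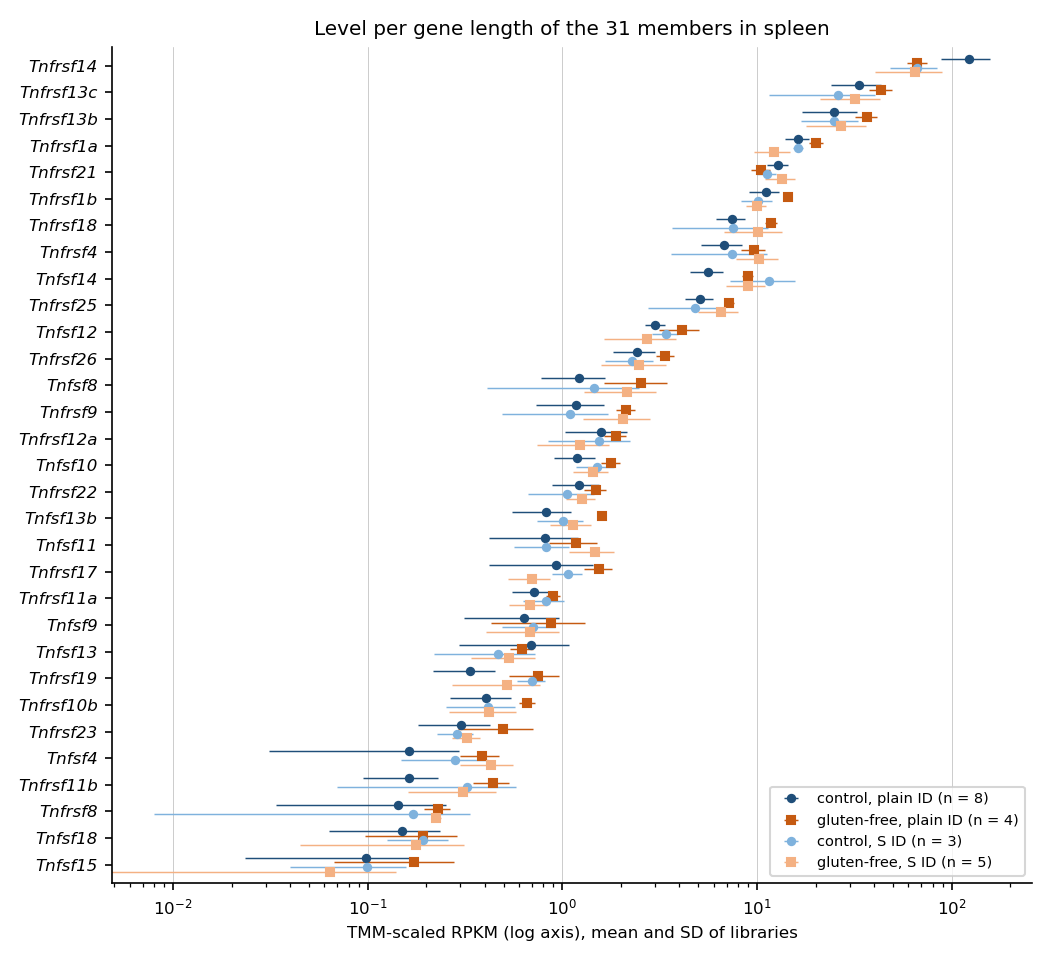
Level of the 31 members in RPKM (log axis), each with the mean and SD of the libraries in 4 groups; bars that would pass below 0 are clipped by the log axis. Tnfrsf14, Tnfrsf13c and Tnfrsf13b lead, with Tnfrsf14 at 123 in plain control libraries and 66.7 or less in the other groups.

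Within the plain IDs, 18 of the 31 members differed between diets, 16 higher and 2 lower in gluten-free spleens. Costimulatory receptors of T cells (Tnfrsf18, Tnfrsf4, Tnfrsf25 and Tnfrsf9), the ligands Tnfsf8, Tnfsf13b, Tnfsf14, Tnfsf10 and Tnfsf12, and both TNF receptors rose. Tnfrsf14 and Tnfrsf21 fell. By direction, 11 receptors and 5 ligands were higher and 2 receptors were lower. Among all 18362 tested genes, 17.5% were called higher and 22.1% lower in the same comparison. The median log2 fold change was 0.53 over the members and 0.03 over all tested genes, and 28 of 31 members had a fold change above 0. Calls are at an adjusted p under 0.05 from edgeR's quasi-likelihood test with Benjamini-Hochberg adjustment over all tested genes, and fold changes are gluten-free minus control on the log2 scale with their standard errors (SE).

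**Figure D2:**
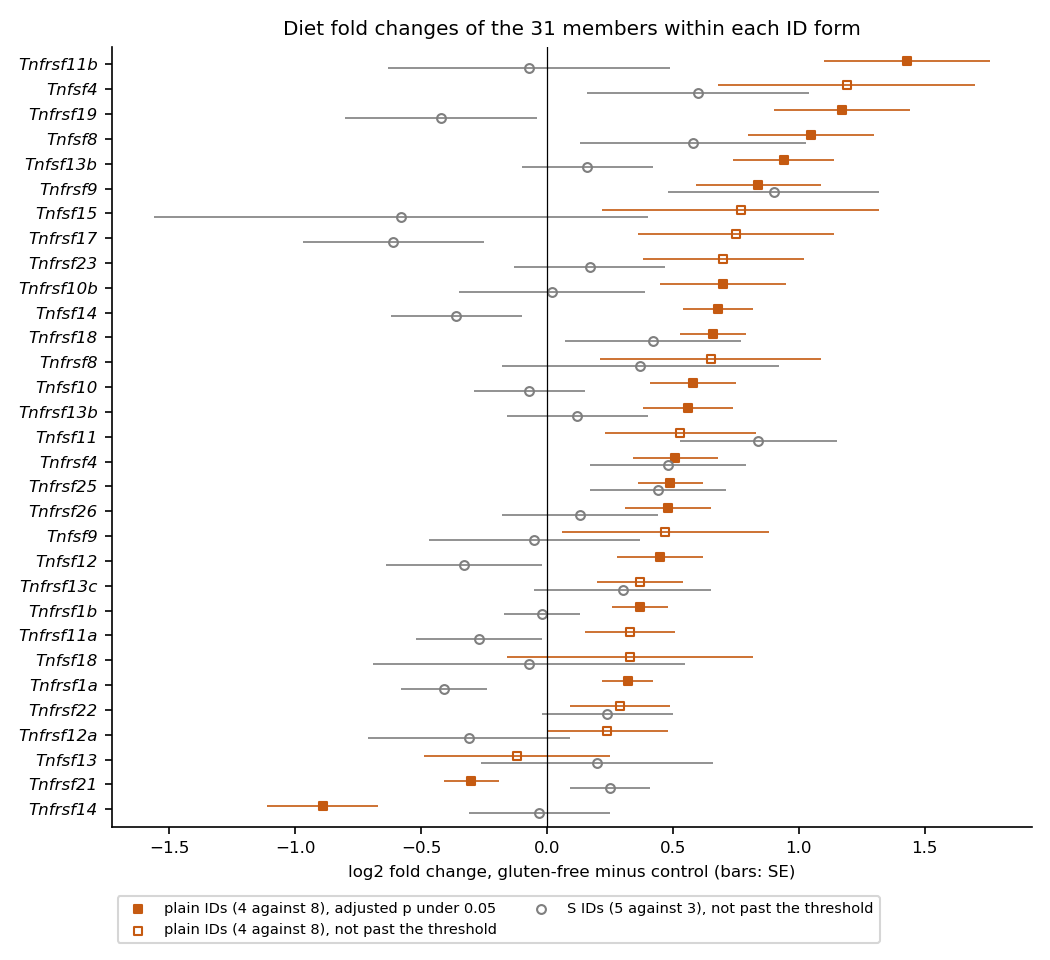
Log2 fold change of each member between diets with its SE, for plain IDs (squares, filled where the adjusted p was under 0.05) and S IDs (circles). In the plain IDs 16 members are called higher and 2 lower, and in the S IDs 0 are called.

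Among the costimulatory receptors, Tnfrsf18 (GITR, high on regulatory T cells) had the smallest adjusted p of the members. Plain control libraries ran from 9.18 to 14.7 CPM with a median of 10.9, and gluten-free 7, 8, 9 and 10 stood at 17.1, 17.5, 17.6 and 19.9. All 4 gluten-free libraries were above the highest control, and the log2 fold change was 0.66 (SE 0.13, adjusted p 0.000652). Its neighbour Tnfrsf4 (OX40, induced on activated T cells) ran from 6.64 to 11.7 CPM with a median of 8.59 in control libraries and stood at 12.2, 12.5, 12.1 and 15.9 in gluten-free ones. The groups were again apart, and Tnfrsf4 rose by 0.51 (SE 0.17, adjusted p 0.0235), but the call was lost without gluten-free 10 (adjusted p 0.0892). Tnfrsf25 (death receptor 3, a costimulator of T cells) ran from 8.73 to 14 CPM with a median of 12.4 in control libraries, against 15.4, 15.8, 16.7 and 17.6, and rose by 0.49 (SE 0.13, adjusted p 0.00616). Tnfrsf9 (4-1BB, induced on activated T and NK cells) ran from 1.47 to 4.85 CPM with a median of 2.93, against 6.25, 6.34, 5.13 and 5.32, and rose by 0.84 (SE 0.25, adjusted p 0.0148). Both had gluten-free libraries wholly above the control ones. Tnfrsf8 (CD30) was not called at 0.65 (SE 0.44, adjusted p 0.252), with 0.161 to 1.33 CPM in plain control libraries. Without control 8, whose 1.33 CPM was the highest of the 20 libraries, it was called (adjusted p 0.0333).

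Of the partner ligands of these receptors, 1 was called. Tnfsf8 (CD30 ligand) ran from 3.33 to 7.93 CPM with a median of 3.86 in plain control libraries and stood at 14.5, 6.30, 9.11 and 8.79 in gluten-free 7 to 10. Gluten-free 8 lay within the control range, and the log2 fold change was 1.05 (SE 0.25, adjusted p 0.00352). Tnfsf4 (OX40 ligand), Tnfsf18 (GITR ligand), Tnfsf9 (4-1BB ligand) and Tnfsf15 were not called, with fold changes of 1.19, 0.33, 0.47 and 0.77 and standard errors from 0.41 to 0.55. Tnfsf4, Tnfsf15 and Tnfsf18 had 20 counts or fewer in every library, which limits what could be detected for them. Without control 2, Tnfsf4 was called (adjusted p 0.0168).

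The T cell markers moved the same way in these libraries. Of 10 T cell marker genes 10 were higher in the plain gluten-free libraries, as were 6 of 6 regulatory T cell genes, and their sums ran from 278 to 504 CPM in control and from 527 to 656 CPM in gluten-free libraries for T cells. Per 100 CPM of T cell markers, Tnfrsf18 stood at 2.75 to 3.63 CPM in control and 2.61 to 3.57 in gluten-free libraries. The same ratio was 2.32 to 2.85 and 1.86 to 2.85 for Tnfrsf4, and 2.50 to 4.75 and 2.35 to 3.16 for Tnfrsf25. For Tnfrsf9 it was 0.529 to 1.13 and 0.921 to 1.20, and for Tnfsf8 0.963 to 1.57 and 1.20 to 2.21. Relative to these markers the diet groups therefore overlapped for all 5 genes, and these ratios were picked with the values in view. The mean ratio was higher in gluten-free libraries for Tnfsf8 (1.65 against 1.27) and Tnfrsf9 (1.01 against 0.869). It was lower for Tnfrsf18 (3.16 against 3.19), Tnfrsf4 (2.31 against 2.55) and Tnfrsf25 (2.88 against 3.30). In bulk tissue, more cells of a type and more RNA per cell cannot be told apart.

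**Figure D3:**
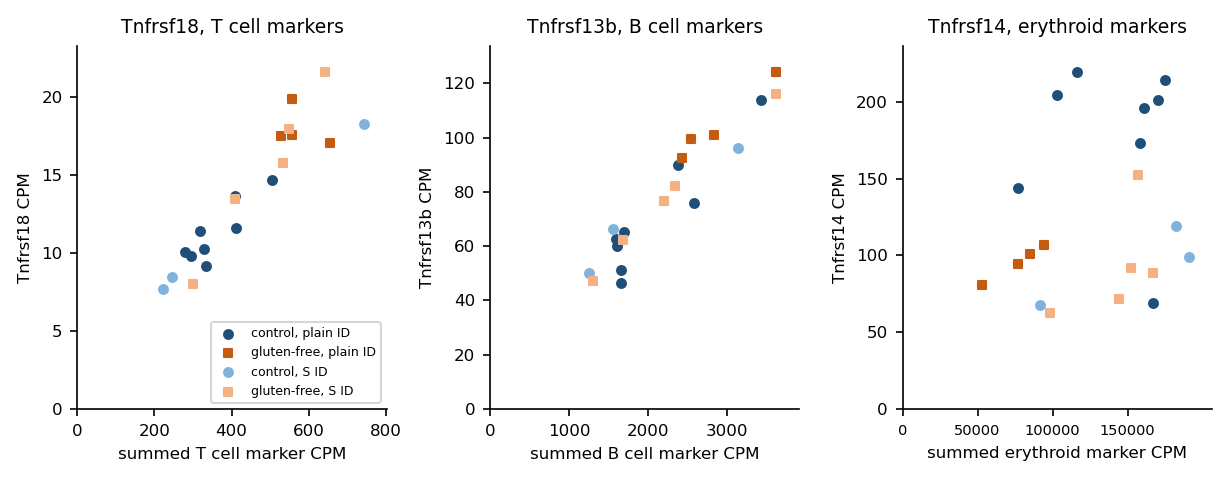
Level (CPM) of Tnfrsf18 against summed T cell markers, Tnfrsf13b against summed B cell markers, and Tnfrsf14 against summed erythroid markers, 1 point per library, coloured by diet and ID form. Tnfrsf18 and Tnfrsf13b lie in the same band in all 4 groups, while Tnfrsf14 sits at 144 to 219 CPM in 7 plain control libraries and at 68.9 in control 5.

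In the BAFF system, the ligand rose with the receptor TACI. Tnfsf13b (BAFF, the survival factor of mature B cells, made by myeloid and stromal cells) ran from 3.95 to 9.01 CPM with a median of 4.73 in plain control libraries and stood at 11.2, 10.6, 11.2 and 11 in gluten-free ones. All 4 gluten-free libraries were above all 8 control libraries, and the log2 fold change was 0.94 (SE 0.20, adjusted p 0.00168). Tnfrsf13b (TACI) ran from 46.6 to 114 CPM with a median of 63.9, against 124, 99.3, 92.4 and 101 CPM. Control 8, at 114 CPM, lay above 3 of the 4 gluten-free libraries, and the fold change was 0.56 (SE 0.18, adjusted p 0.0245); without gluten-free 7 the adjusted p was 0.0727. Tnfrsf13c (BAFF-R) ran from 51.1 to 108 CPM with a median of 64.8, against 103, 77.0, 81.0 and 96.0 CPM, and missed the threshold at 0.37 (SE 0.17, adjusted p 0.0957). Control 8 was its highest library, and without that library it was called at 0.51 (adjusted p 0.00462).

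The other members of this system were at low levels. Tnfrsf17 (BCMA, a receptor of plasma cells) stood at 0.755 ± 0.414 CPM in control and 1.26 ± 0.206 CPM in gluten-free libraries and was not called (0.75, SE 0.39, adjusted p 0.133). Tnfsf13 (APRIL, ligand of TACI and BCMA) stood at 1.12 ± 0.643 and 1.02 ± 0.141 CPM and was not called either. Summed B cell markers ran from 1590 to 3430 CPM in control and from 2430 to 3610 CPM in gluten-free libraries, with 1 of 10 genes called higher, and 6 of 7 plasma cell markers were called higher. Per 100 CPM of B cell markers, Tnfrsf13b stood at 2.81 to 3.95 CPM in control and 3.43 to 3.91 in gluten-free libraries, and Tnfrsf13c at 3.09 to 4.20 and 2.85 to 3.39. Markers of neutrophils, cells that can make BAFF, were higher for 10 of 10 genes (sums of 741 to 2360 CPM against 3070 to 7970 CPM), and monocyte markers for 3 of 5. Dendritic cell markers were called higher for 5 of 8 genes and lower for 1 (sums of 127 to 186 CPM against 174 to 194 CPM). Within the plain controls, control 2 had the lowest neutrophil sum (741 CPM) and the highest Tnfsf13b (9.01 CPM), and control 3 the highest sum (2360 CPM) with 4.26 CPM. In the S IDs, gluten-free S5 had the lowest sum (660 CPM) and the highest Tnfsf13b (9.14 CPM). Gluten-free S8, with the next lowest sum (1220 CPM), had the lowest Tnfsf13b (4.54 CPM). The part of neutrophils, monocytes and dendritic cells in the level of Tnfsf13b was not tested.

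The receptor HVEM and its ligand LIGHT moved in opposite directions. Tnfrsf14 (HVEM) ran from 68.9 to 219 CPM with a median of 199 in plain control libraries and stood at 80.7, 107, 101 and 94.2 CPM in gluten-free ones. Control 5 was the lowest of all 12 libraries, while the other 7 controls, at 144 or more, were above every gluten-free library. The log2 fold change was -0.89 (SE 0.22, adjusted p 0.00478), and without control 5 it was -1.01. Tnfsf14 (LIGHT) ran from 7.13 to 13.8 CPM with a median of 10.1 in control libraries and stood at 16.1, 17.7, 17.2 and 15.2 in gluten-free ones. The groups were apart, and the fold change was 0.68 (SE 0.14, adjusted p 0.00116). Markers of megakaryocytes and platelets moved with Tnfsf14: 8 of 8 tested genes of that list were called higher in the plain gluten-free libraries, with sums of 679 to 1710 CPM in control and 1880 to 2670 CPM in gluten-free libraries. Within the controls, control 5 was the highest and the pair of control 2 and control 8 the lowest for both these markers and Tnfsf14. Their part in the level of Tnfsf14 was not tested. Erythroid markers were lower for 15 of 15 genes in the plain gluten-free libraries (sums of 77200 to 175000 CPM in control and 52800 to 94100 CPM in gluten-free). Tnfrsf14 was thus lower in the group with lower erythroid markers. In the S IDs the erythroid sums were lowest in control S6 (91600 CPM) and gluten-free S6 (98400 CPM), which were also the lowest libraries for Tnfrsf14 at 67.4 and 62.4 CPM. By these sums, other libraries did not follow that order. Control 5 held 167000 CPM of erythroid markers and 68.9 CPM of Tnfrsf14. Control 8 held 77200 CPM of erythroid markers, less than gluten-free 8 and 9 (94100 and 84700 CPM), and 144 CPM of Tnfrsf14. Control S1 and S2 had the highest erythroid sums of the 20 libraries (191000 and 182000 CPM), with 99.2 and 119 CPM of Tnfrsf14. By the mean log2 level of the same markers, control 8 (9.68) was above every plain gluten-free library (8.69 to 9.34). Gluten-free S8 was the highest of the 20 libraries by that measure (10.92), with 152 CPM of Tnfrsf14. Control 5 stood at 10.37, and gluten-free S5, with 88.6 CPM of Tnfrsf14, at 10.49. The part of erythroid cells in the level of Tnfrsf14 was not tested.

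**Figure D4:**
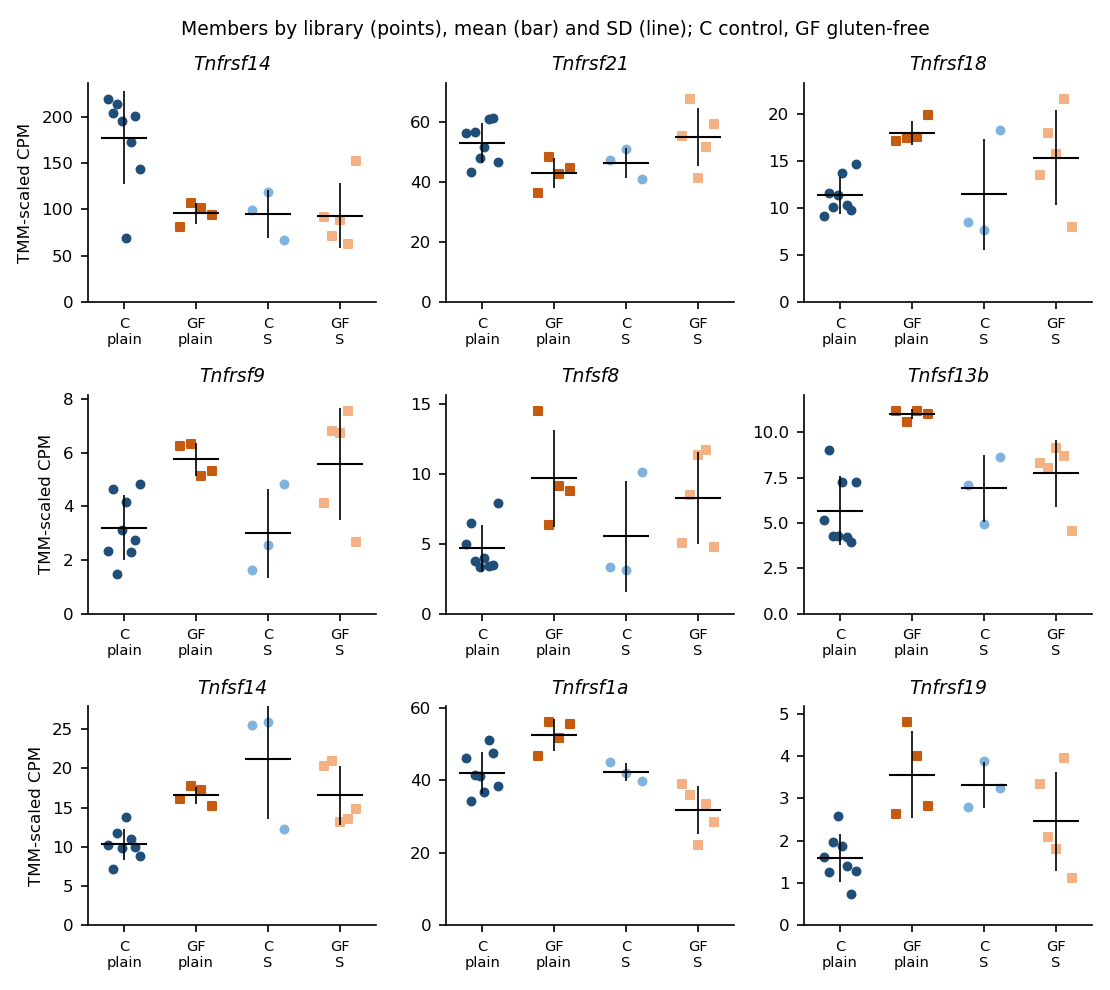
CPM of 9 members by library (points) with the group mean (bar) and SD (line), for control (C) and gluten-free (GF) libraries of each ID form. Tnfrsf14 is at 144 CPM or more in 7 of 8 plain control libraries, and Tnfsf13b is near 11 CPM in all 4 plain gluten-free libraries.

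Both receptors of TNF rose modestly. Tnfrsf1a (type 1, with a death domain, on most cells) ran from 34.2 to 51.1 CPM with a median of 41.2 in plain control libraries, against 46.6, 56.0, 51.6 and 55.5 CPM. Gluten-free 7 lay within the control range, and the rise of 0.32 (SE 0.10, adjusted p 0.0222) lost its call without gluten-free 8 (0.0583) or gluten-free 10 (0.0546). Tnfrsf1b (type 2, without a death domain, on lymphocytes and myeloid cells) ran from 33.5 to 55.7 CPM with a median of 41.4, against 53.6, 53.5, 54.4 and 57.7 CPM. Control 8 was the control library within the gluten-free range, and the fold change was 0.37 (SE 0.11, adjusted p 0.0177).

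Of the other death receptors and their ligands, Tnfrsf21 (death receptor 6) was the receptor that fell beside Tnfrsf14. It ran from 43.4 to 61.2 CPM with a median of 53.9 in control libraries and stood at 36.5, 48.4, 42.6 and 44.8 CPM in gluten-free ones. The ranges overlapped, and the fold change of -0.30 (SE 0.11, adjusted p 0.0326) lost its call without control 1, 3, 6 or 7 or gluten-free 7, 9 or 10, with adjusted p up to 0.163. Tnfsf10 (TRAIL, a ligand that can start cell death) ran from 4.78 to 9.45 CPM with a median of 6.00, against 9.79, 10.2, 9.57 and 7.88 CPM, and rose by 0.58 (SE 0.17, adjusted p 0.0127). Gluten-free 10 fell within the control range. Its receptor in the mouse, Tnfrsf10b, ran from 1.12 to 3.24 CPM with a median of 2.44, against 3.97, 3.30, 3.80 and 3.35 CPM, a fold change of 0.70 (SE 0.25, adjusted p 0.035). The groups were narrowly apart, and the call was lost without control 4 or 6 or any 1 of the 4 gluten-free libraries, with adjusted p up to 0.0765.

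The receptors Tnfrsf22, Tnfrsf23 and Tnfrsf26 are closely related neighbours, the first 2 known as decoys for TRAIL, and reads they share would make their separate values uncertain. Tnfrsf26 ran from 5.96 to 11.5 CPM with a median of 7.38 in control libraries, against 12.5, 10.8, 10.2 and 10.0 CPM. Control 8 lay within the gluten-free range, and the fold change of 0.48 (SE 0.17, adjusted p 0.0308) lost its call without control 3, 6 or 7 or gluten-free 7 or 8, with adjusted p up to 0.0861. Tnfrsf22 and Tnfrsf23 were not called, with fold changes of 0.29 (SE 0.20) and 0.70 (SE 0.32), and Tnfrsf23 was called without control 8 (adjusted p 0.046).

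Among receptors and ligands best known outside lymphocytes, Tnfrsf11b (osteoprotegerin, the soluble decoy receptor that blocks RANK ligand) had the largest fold change of the called members. It ran from 0.161 to 0.771 CPM with a median of 0.459 in control libraries and stood at 1.10, 1.5, 1.40 and 0.958 CPM in gluten-free ones, a rise of 1.43 (SE 0.33, adjusted p 0.00301). The groups were apart, at 2 to 37 counts per library over the 20 libraries. Tnfsf11 (RANK ligand) was not called at 0.53 (SE 0.30, adjusted p 0.167), and control 8, at 3.88 CPM, was above all 11 other plain libraries; without it the fold change was 0.80 (adjusted p 0.00896). Tnfrsf11a (RANK) was not called at 0.33 (SE 0.18, adjusted p 0.167).

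Tnfrsf19 (TROY, a receptor of progenitor and stromal cells) ran from 0.725 to 2.58 CPM with a median of 1.49 in control libraries, against 2.62, 4.80, 3.99 and 2.82 CPM. The groups were narrowly apart, and the fold change was 1.17 (SE 0.27, adjusted p 0.00265). Tnfsf12 (TWEAK) ran from 3.82 to 5.47 CPM with a median of 4.65, against 4.43, 7.93, 6.30 and 6.18 CPM. Its fold change of 0.45 (SE 0.17, adjusted p 0.041) lost its call without control 2, 3, 4 or 7 or gluten-free 8, 9 or 10, with adjusted p up to 0.171. Its receptor Tnfrsf12a (Fn14) was not called at 0.24 (SE 0.24, adjusted p 0.438). Stroma markers were called higher for 4 of 10 genes in the same comparison (sums of 638 to 1080 CPM against 966 to 1350 CPM), and their part in these values was not tested.

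With the mean level of the erythroid markers as a covariate, 0 of the 31 members were called within the plain IDs, against 690 of 18362 genes, and 18 members changed sign, with adjusted p from 0.0886 to 0.93. Of the 18 called members, 9 kept their direction in that fit: Tnfrsf14 (-0.23), Tnfrsf1a (0.67), Tnfsf14 (1.10), Tnfrsf18 (0.19), Tnfrsf25 (0.31), Tnfsf13b (0.13), Tnfsf12 (0.79), Tnfrsf19 (2.04) and Tnfrsf11b (1.32). Diet and erythroid level largely coincided in these 12 libraries and cannot be told apart there.

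**Figure D5:**
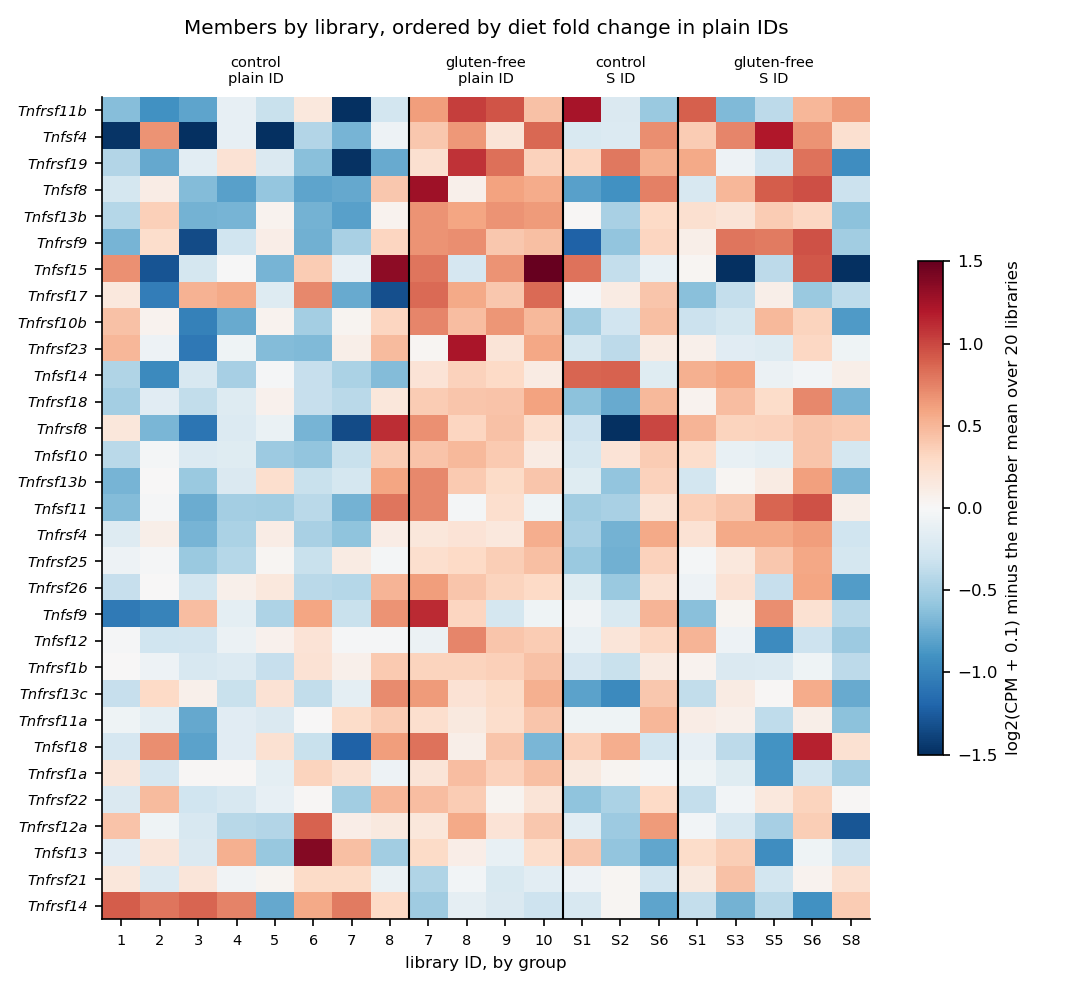
Each member (rows, by diet fold change in the plain IDs) in each library (columns, by group), as log2(CPM + 0.1) minus the member's mean over 20 libraries, with colours capped at 1.5 either way. The plain gluten-free columns are red for most members, and in the S groups control S6 and gluten-free S6 are high and control S1, control S2 and gluten-free S8 are low for many of them.

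Within the S IDs no member differed between diets by the same test: 0 of 31 were called, with 0% of the 18362 genes called higher and 0% lower. At an unadjusted p under 0.05 there were 2 members, Tnfrsf1a and Tnfsf11, and 986 genes, and DESeq2 and limma-voom called 0 members. The median log2 fold change was 0.12 over the members and 0.02 over all tested genes. For the members the smallest adjusted p was 0.89. The SE of the fold changes was from 0.15 to 0.98, against 0.10 to 0.55 within the plain IDs, so effects as large as those of the plain IDs could be missed here.

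Some members had values in the S IDs near those of the plain IDs, without passing the test. Tnfrsf9 stood at 1.61, 2.54 and 4.84 CPM in control S1, S2 and S6 and at 4.12, 6.81, 6.73, 7.57 and 2.66 CPM in gluten-free S1, S3, S5, S6 and S8, a log2 fold change of 0.90 (SE 0.42). Tnfrsf18 stood at 8.49, 7.69 and 18.3 CPM against 13.5, 18, 15.8, 21.6 and 8.02 CPM (0.42, SE 0.35). Tnfsf11 stood at 1.49, 1.53 and 2.51 CPM against 2.82, 2.95, 4.08, 4.31 and 2.32 CPM (0.84, SE 0.31). Control S6 was far above control S1 and S2 for these genes, and gluten-free S8 was the lowest of its group.

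The same libraries were low for T cell markers, whose sums were 245, 221 and 743 CPM in control S1, S2 and S6 and 299 CPM in gluten-free S8, against 408 to 642 CPM in the other gluten-free S libraries. For 10 of the 31 members control S1, control S2 and gluten-free S8 were the lowest 3 of the 8 S libraries: Tnfrsf13c, Tnfrsf1b, Tnfrsf18, Tnfrsf4, Tnfrsf25, Tnfrsf9, Tnfsf8, Tnfsf13b, Tnfsf11 and Tnfsf4. These 3 libraries were picked with the values in view. The share of all genes with that order was not counted, so it is not known to be particular to the members. The same 3 were also lowest for B cell markers (1560, 1250 and 1300 CPM, against 1680 to 3620 CPM) and dendritic cell markers (126, 123 and 115 CPM, against 128 to 176 CPM). For Tnfrsf18, the level per 100 CPM of T cell markers was 2.46 to 3.48 in S control and 2.68 to 3.36 in S gluten-free libraries. The median of this ratio was higher in S gluten-free libraries for Tnfrsf9 (1.18 against 0.657), Tnfsf8 (1.59 against 1.37) and Tnfsf11 (0.691 against 0.608). It was lower for Tnfrsf18 (3.28 against 3.47), Tnfrsf4 (2.94 against 2.99), Tnfrsf25 (3.09 against 3.51) and Tnfsf14 (3.83 against 10.4). The part of T cell or other cell content in these values was not tested further.

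With both ID forms pooled and the form as a term, 0 of 31 members were called, and 0% of genes were called higher and 0% lower, while 13 members and 4559 genes had an unadjusted p under 0.05. The smallest adjusted p of a member was 0.0979, and the median fold change was 0.34 over members and 0.00 over all genes. limma-voom called 0 members and DESeq2 called 7: Tnfrsf18, Tnfrsf25, Tnfrsf4, Tnfrsf9, Tnfsf13b, Tnfsf8 and Tnfsf11, all higher. DESeq2 called 1557 of all genes. Without control S6, 12 members and 3695 genes were called, among them Tnfrsf18 (0.77, adjusted p 0.00777), Tnfsf8 (1.16, 0.00826) and Tnfrsf14 (-0.65, 0.036), and without gluten-free S8 there were 8 members and 2923 genes. These fold changes combine 2 ID forms whose diet fold changes differed for 4 members, given next.

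The diet fold change differed between the ID forms for 4 members by a test of the difference itself (S minus plain), 1 higher and 3 lower, where 15.4% of genes were called higher and 9.37% lower. Tnfrsf1a stood at 44.9, 41.9 and 39.9 CPM in control S1, S2 and S6 and at 38.9, 35.8, 22.0, 33.5 and 28.4 CPM in gluten-free S1, S3, S5, S6 and S8. All 5 gluten-free S libraries were below all 3 controls, opposite to the plain IDs, and the difference of fold changes was -0.73 (SE 0.20, adjusted p 0.0113). Tnfsf14 stood at 25.6, 25.9 and 12.3 CPM against 20.3, 21.0, 13.1, 13.6 and 14.8 CPM, a difference of -1.04 (SE 0.28, adjusted p 0.0122). Control S1 and S2 were the highest of all libraries for LIGHT, and without control S1 the adjusted p was 0.0511. They were also the highest of the 20 libraries for the megakaryocyte and platelet markers, at 4190 and 4240 CPM against 1420 CPM in control S6. Gluten-free S1 and S3 came next in both, with 3040 and 2900 CPM of these markers, and the other gluten-free S libraries held 1580 to 1890 CPM. The part of these markers in the difference was not tested.

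Tnfrsf19 stood at 2.79, 3.88 and 3.25 CPM in S control and at 3.33, 2.08, 1.79, 3.96 and 1.11 CPM in S gluten-free libraries, a difference of -1.59 (SE 0.46, adjusted p 0.0166). Tnfrsf21 stood at 47.3, 50.9 and 40.9 CPM against 55.3, 67.6, 41.4, 51.8 and 59.2 CPM, a difference of 0.55 (SE 0.19, adjusted p 0.0369). The Tnfrsf21 difference lost its call on leaving out any 1 of control 1, 3, 6, 7, S1 or S6 or gluten-free 7, 9, 10, S3 or S8, with adjusted p up to 0.118. Tnfrsf14 was not called here (0.86, SE 0.38, adjusted p 0.105), and without control 5 it was, at 0.98 (adjusted p 0.0218). For the T cell receptors the estimated differences were small against their errors, at -0.24 (SE 0.34) for Tnfrsf18, -0.03 (SE 0.34) for Tnfrsf4, -0.06 (SE 0.28) for Tnfrsf25 and 0.06 (SE 0.48) for Tnfrsf9.

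Between ID forms within a diet, the members called were again few. Among control libraries 1 member was called, where 1.99% of genes were called higher and 1.18% lower in S IDs: Tnfsf14, higher by 1.04 (SE 0.20, adjusted p 0.00524). This call was lost without control S1 (adjusted p 0.0812) or control S2 (0.111), and without control 5 Tnfrsf14 was called lower at -1.02 (0.00981). Among gluten-free libraries 5 members were called, 1 higher and 4 lower in S IDs, where 20.5% of genes were called higher and 12.7% lower. Tnfrsf1a (-0.72, SE 0.14, adjusted p 0.000603) and Tnfrsf1b (-0.52, SE 0.13, adjusted p 0.00499) were lower with S IDs, and these 2 calls were not lost in any fit that left out 1 library. Tnfsf12 (-0.59, adjusted p 0.0489), Tnfrsf17 (-1.14, adjusted p 0.0274) and Tnfrsf21 (0.35, adjusted p 0.0427) each lost the call in several such fits, with adjusted p up to 0.169, 0.0629 and 0.153. What the letter S marks is not stated, so a cohort, a batch or another cause cannot be told apart.

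The superfamily genes with other names moved with the members in the plain IDs. Of 15 such genes 14 were tested (Cd70, at 5 counts or fewer in every library, was not), and 9 were higher and 1 was lower in gluten-free libraries. Among all tested genes 17.5% were called higher and 22.1% lower in that comparison. Tnf, the founding cytokine, ran from 4.64 to 9.21 CPM with a median of 5.61 in control libraries and stood at 15.7, 9.95, 8.73 and 10.9 CPM in gluten-free ones, a rise of 0.88 (SE 0.19, adjusted p 0.00144). Cd27, a costimulatory receptor of T and memory B cells, rose by 0.82 (adjusted p 0.0026), Cd40lg, the T cell signal to B cells, by 0.80 (0.0125) and Fas, the death receptor of activated lymphocytes, by 0.75 (0.00242). Fasl, Eda, Cd40 and Edar were not called. Relt, a receptor of blood cells, fell: control libraries ran from 75.3 to 107 CPM with a median of 92.4, and gluten-free ones stood at 54.2, 56.9, 60.4 and 59.9 CPM (-0.68, SE 0.09, adjusted p 3.63e-05). In the S IDs Relt was at 70.1, 55.7 and 69.3 CPM in control and 72.3, 78.1, 91.2, 68.7 and 91.6 CPM in gluten-free libraries, and its diet fold changes differed between forms by 0.98 (SE 0.16, adjusted p 0.00171).

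Of 31 adaptor and NF-kappa-B pathway genes, 14 were higher, 1 was lower and 16 were not called in the plain IDs, with a median fold change of 0.23, where 17.5% of all tested genes were higher, 22.1% were lower and the median was 0.03. Traf1, an adaptor induced by NF-kappa-B in lymphocytes, rose by 0.72 (adjusted p 0.00359), Tnfaip3, the feedback inhibitor A20, by 0.57 (0.0149), Bcl3, a nuclear partner of NF-kappa-B, by 0.55 (0.0063) and Relb, a subunit of the non-canonical pathway, by 0.52 (0.0135). Traf4 fell: control libraries ran from 48.4 to 77.8 CPM with a median of 69.0, and the gluten-free ones stood at 32.1, 32.5, 32.2 and 32.6 CPM (-1.0, SE 0.12, adjusted p 2.05e-05). In the S IDs 0 genes of either list were called for diet. The diet fold change differed between forms for 3 of the 31 pathway genes, 1 higher and 2 lower, where 15.4% of all tested genes were called higher and 9.37% lower. They were Traf4 (1.13, adjusted p 0.00323), Cflar (-0.55, 0.0219), which encodes an inhibitor of caspase-8, and Tnfaip8 (-0.45, 0.0379).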

How the data were processed

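The deposited values are raw read counts per gene, whole numbers made by the authors from RNA of whole spleen; per the submitters' processing notes they used CASAVA, HISAT2 2.0.5, featureCounts 1.5.0 and GRCm38 (mm10). Strand setting, annotation release and the treatment of reads with several matches are not given in the sources used here. In R 4.3.3, edgeR 4.0.16 (quasi-likelihood test, TMM scaling over the 20 libraries, filterByExpr over the 4 groups) tested 18362 of 33089 genes with a count, all 31 members among them, with Benjamini-Hochberg adjustment over all tested genes and a threshold of 0.05. Diet was fitted within each ID form on its own libraries, and the other comparisons were fitted on all 20 libraries. CPM and RPKM are TMM-scaled and were computed here from the counts. The scripts were tested on simulated data. Alternatives were RLE scaling, 2 other filters, DESeq2 1.42.0, limma-voom (limma 3.58.1), an erythroid covariate, a replicate block and leaving out each library; leaving out pairs of libraries was added after seeing the data. Values per library were given for members called within the plain IDs, and at most the 4 highest and 4 lowest called genes that averaged 1 CPM or more were named from each further list. The members, lists and tests were chosen with earlier results of these data known. The labels do not pair libraries that share an ID. Over 47 pairs within a group, counts differed by 6.01 to 100 times sampling noise (chi-square over its degrees of freedom), so no library repeated another of its group. Pairs across groups were not compared in this way. Gene coordinates were those of the count table, and GENCODE vM21 was used only to find annotated exons in the promoter windows.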

Additional observations from a re-analysis of the deposited data

Results flagged for a closer look

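Chance alone flags about 1 in 20 groups for a sample far from the others, and 4 of 93 member and group pairs were flagged. The S control group was too small for this check and was not examined. Tnfrsf14 stood at 68.9 CPM in control 5, against 144 to 219 CPM in the other 7 plain control libraries. Tnfrsf4 stood at 15.9 CPM in gluten-free 10, against 12.1 to 12.5 CPM in the other plain gluten-free libraries. Tnfsf13b stood at 4.54 CPM in gluten-free S8, against 8.03 to 9.14 CPM in the other gluten-free S libraries. Tnfsf11 stood at 3.88 CPM in control 8, against 1.26 to 2.15 CPM in the other plain control libraries.

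The diet fold change differed between the ID forms for 4 of the 31 members by edgeR's test of the difference, S minus plain on the log2 scale. By the same test 15.4% of all tested genes were called higher and 9.37% lower, so a call is common among genes at large. It was -0.73 for Tnfrsf1a (0.32 in plain and -0.41 in S IDs, adjusted p 0.0113), -1.04 for Tnfsf14 (0.68 and -0.36, adjusted p 0.0122), -1.59 for Tnfrsf19 (1.17 and -0.42, adjusted p 0.0166) and 0.55 for Tnfrsf21 (-0.30 and 0.25, adjusted p 0.0369).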

How the results depend on the processing

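Brackets give the genes called among all tested genes in the same fit. Within the plain IDs the number of members called stayed between 12 and 22 in all alternatives but 1. It was 12 when fitted over all 20 libraries (6510 of 18362 genes). On leaving out each library it ran from 13 without gluten-free 10 (6145 of 18305 genes) to 22 without control 8 (8741 of 18299 genes). The exception was the erythroid covariate, where it was 0 (690 of 18362 genes). That fit changed the sign of 18 members: Tnfrsf13b (-0.60), Tnfrsf13c (-0.62), Tnfrsf21 (0.21), Tnfrsf1b (-0.08), Tnfrsf4 (-0.16), Tnfrsf26 (-0.41), Tnfsf10 (-0.08), Tnfsf8 (-0.70), Tnfrsf22 (-0.68), Tnfrsf11a (-0.27), Tnfrsf9 (-0.29), Tnfrsf10b (-0.16), Tnfsf11 (-1.35), Tnfsf13 (0.40), Tnfsf9 (-0.80), Tnfrsf8 (-1.5), Tnfsf15 (-1.15) and Tnfsf18 (-1.69). The sign of Tnfsf13 also changed with limma-voom (0.03), and its fold change ran from -0.22 to 0.15 on leaving out each library (0.15 without control 6). Within the S IDs 0 members were called in each alternative. In the pooled comparison 7 were called with DESeq2 (1557 of 18334 genes) and 0 to 12 on leaving out each library. The count was 12 without control S6 (3695 of 18955 genes), 8 without gluten-free S8 (2923 of 18343 genes) and 15 without both of these (5365 of 18887 genes). The replicate block over the 8 libraries whose ID occurs in both diets (7, 8, S1 and S6) called 0 members, and the deviations of libraries that share an ID correlated at -0.17, -0.20, 0.09 and 0.38 in that order, so no pairing was used. For the difference between forms, 2 to 6 members were called on leaving out each library. The count was 2 without control S1 (3213 of 18960 genes) and 6 without control 8 (5262 of 18299 genes) or gluten-free S1 (4885 of 18326 genes). For S against plain IDs among control the count was 3 with DESeq2 (1003 of 18334 genes) and 0 to 2 on leaving out each library. It was 2 without control 5 (909 of 18383 genes). Among gluten-free libraries it was 2 with no filter (5381 of 33089 genes) and 8 with limma-voom (6693 of 18362 genes). On leaving out each library it was 2 to 8, with 2 without gluten-free 10 (5079 of 18305 genes) and 8 without gluten-free S6 (7102 of 18294 genes). The cause of these changes was not tested. Members under 20 counts per library are limited by depth.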
